A study of Mus musculus with 40 samples.

Results

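Cbr1 and Cbr3, the genes of the cytosolic carbonyl reductases of mouse liver, are 2 of the 18193 genes that the array reads with a probe set of their own, and each was read by 1 of its 45037 probe sets. Both probe sets were found by their gene symbol. Both were also among the 18935 kept for testing, for which 3 or more mice of some group had to read log2 4 or higher. The genes were chosen from values measured on these same arrays, taken here to be the responses to D3T and CDDO-Im in Wt liver and their difference between genotypes, since the exact basis of the choice is not recorded. Those differences are therefore given as a description with no test. The other comparisons share arrays with them, so their p-values are not independent support.

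Carbonyl reductases belong to the short-chain dehydrogenases and pass electrons from NADPH to carbonyl groups of quinones, aldehydes and ketones, among them prostaglandins and anthracycline drugs. Nrf2 is a transcription factor that its inhibitor Keap1 marks for degradation. Electrophiles that modify Keap1 release Nrf2, which then binds antioxidant response elements with a small Maf partner and raises the transcription of detoxification genes. CBR1 and CBR3 are known Nrf2 targets in human cells.

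Each of 40 Affymetrix mouse expression arrays held the liver RNA of a single male mouse of about 12 weeks on the C57BL/6J background, and the mice of a group are its replicates. Nrf2-null mice, which lack Nrf2 in every cell and came from inbred heterozygotes, and Wt mice had been given D3T (300 μmol/kg), CDDO-Im (3, 10 or 30 μmol/kg) or vehicle (Cremophor-EL, DMSO and PBS) by gavage. D3T is a small sulfur heterocycle of the dithiolethione class and CDDO-Im is a synthetic triterpenoid imidazolide. Each of the 10 groups held 4 mice, which received 3 treatments over 5 days on a purified AIN-76A diet free of ethoxyquin, and livers were taken 24 h after the last treatment. Groups are named by genotype, agent and dose, so Wt CDDO-Im 30 stands for Wt mice given 30 μmol/kg, and all values are log2 intensities after GCRMA.

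Nfe2l2, the gene of Nrf2, read 2.72 to 3.10 in the 20 Nrf2-null mice and 10.77 to 11.75 in the 20 Wt mice on 1 probe set, as the genotype labels have it. On its other probe set the genotypes overlapped, at 5.96 to 7.47 in Nrf2-null and 4.49 to 7.10 in Wt mice. The medians of the kept probe sets lay between 7.5 and 7.86 on the 40 arrays. All 6 hepatocyte markers were measured, at 13.04 to 16.46 on every array, while the 5 lymphocyte and 5 exocrine pancreas markers had no kept probe set. In whole liver, fewer cells of a type and less RNA per cell cannot be told apart. The animal numbers in the labels of the Wt D3T and Wt CDDO-Im 30 mice lay in a range apart from those of the other Wt mice, and the Nrf2-null groups were split in the same way. Where D3T or 30 μmol/kg is set against vehicle, 3 or 10 μmol/kg, that range cannot be told apart from the treatment.

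The genes are neighbours on chromosome 16. In the RefSeq annotation of assembly GRCm38.p6, Cbr1 lies at chr16:93607837-93610349 and Cbr3 at chr16:93683219-93690991, both on the + strand, with 72.9 kb between them that hold the pseudogene Gm5678. Since both genes moved with the same treatments, the RefSeq windows around their start sites (250 bases before to 50 after; Cbr1 chr16:93607587-93607886, Cbr3 chr16:93682969-93683268, + strand) are shown, with GC boxes and CCAAT boxes in capitals:
Cbr1: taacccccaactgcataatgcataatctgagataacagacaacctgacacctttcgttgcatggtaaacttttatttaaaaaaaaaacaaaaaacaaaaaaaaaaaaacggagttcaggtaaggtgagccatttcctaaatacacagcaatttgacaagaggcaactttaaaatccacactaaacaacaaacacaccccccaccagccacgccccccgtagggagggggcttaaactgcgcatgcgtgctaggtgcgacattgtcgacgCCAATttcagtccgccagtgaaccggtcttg
Cbr3: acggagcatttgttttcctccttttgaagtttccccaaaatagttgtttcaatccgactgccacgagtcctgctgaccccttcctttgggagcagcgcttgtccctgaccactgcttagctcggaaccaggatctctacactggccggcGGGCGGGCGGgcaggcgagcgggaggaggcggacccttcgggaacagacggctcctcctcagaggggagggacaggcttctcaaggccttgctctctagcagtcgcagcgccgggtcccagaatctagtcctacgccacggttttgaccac
The windows differ in makeup, with 44% G and C and 11 CpG for Cbr1 and 60% and 19 CpG for Cbr3, where the medians of all 32851 promoter windows were 52.7% and 7. The core of the antioxidant response element, searched as TGACNNNGC on both strands, was in neither window, and 12.4% of all windows held it. Cbr3 held 2 overlapping GC boxes (GGGCGG on either strand) that start 101 and 97 bases before the start site, which Cbr1 lacked, and 35.7% of all windows held 1 or more. Cbr1 held a CCAAT box (CCAAT on either strand) 20 bases after the start site, which Cbr3 lacked, and 37.4% of all windows held one. A TATA box (TATAAA on either strand) was in neither window, against 13.6% of all. These matches describe letters in a short window, and an element farther away would not be seen.

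In Nrf2-null liver, Cbr1 kept overlapping values in all groups. It read 10.06, 10.09, 10.39 and 11.26 in Nrf2-null D3T mice. The Nrf2-null vehicle mice read 10.41, 10.73, 10.12 and 10.63, and the mice given CDDO-Im read 10.52, 10.19, 11.03 and 10.38 at 3 μmol/kg, 10.15, 10.61, 10.39 and 10.74 at 10 μmol/kg, and 10.43, 10.84, 9.71 and 10.61 at 30 μmol/kg. All 5 groups overlapped, and 1 D3T mouse (11.26) stood above the other 19.

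In Wt liver, the mean of Cbr1 was higher with each treatment than with vehicle. It read 11.42, 11.60, 11.49 and 11.79 in Wt D3T mice, against 10.54, 10.24, 10.17 and 10.32 in Wt vehicle mice. With CDDO-Im it read 10.14, 10.85, 10.63 and 10.84 at 3 μmol/kg, 11.68, 11.40, 11.48 and 10.65 at 10 μmol/kg, and 12.52, 12.11, 12.41 and 11.72 at 30 μmol/kg. The D3T, 10 and 30 μmol/kg mice did not overlap with the vehicle mice, whereas the 3 μmol/kg mice did. One mouse at 10 μmol/kg, replicate 4, lay among the 3 μmol/kg mice.

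Cbr3 sat at a common low value in nearly every liver that lacked Nrf2 or treatment. This baseline, the median of the 20 Nrf2-null arrays, was 4.01, and 17 of 20 Nrf2-null arrays against 8 of 20 Wt arrays lay within 0.05 of it. The Nrf2-null D3T mice read 4.01, 3.50, 4.00 and 4.01 and the Nrf2-null vehicle mice 3.87, 4.01, 4.01 and 4.00. The other Nrf2-null mice read 3.99 to 4.21 at all 3 doses of CDDO-Im, and the mouse at 4.21, given 30 μmol/kg, was the only Nrf2-null mouse more than 0.05 above the baseline. The readings of 3.50 and 3.87 lay below it, so the baseline is a value at which readings cluster and not a lowest possible one. Such clusters were common, with 61.2% of all probe sets within 0.05 of their own median on 20 or more arrays.

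In Wt liver, Cbr3 was above the baseline in 12 of the 20 mice, all of them treated, and unevenly so below the top dose. It read 4.50, 5.35, 4.72 and 6.55 in Wt D3T mice, against 4.00 to 4.01 in all 4 Wt vehicle mice. With CDDO-Im it read 4.02, 4.00, 6.00 and 4.06 at 3 μmol/kg, so that 1 of 4 mice was above the baseline. At 10 μmol/kg it read 6.28, 6.12, 4.62 and 4.05, with 3 of 4 mice above the baseline. At 30 μmol/kg it read 10.79, 10.42, 10.91 and 9.41, and all 4 of these mice lay above the 6.55 that was the highest value of any other group. What amount of Cbr3 RNA, if any, the baseline stands for was not tested, so differences from it are on the log2 scale of the array and not ratios of RNA amounts.

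**Figure D1:**
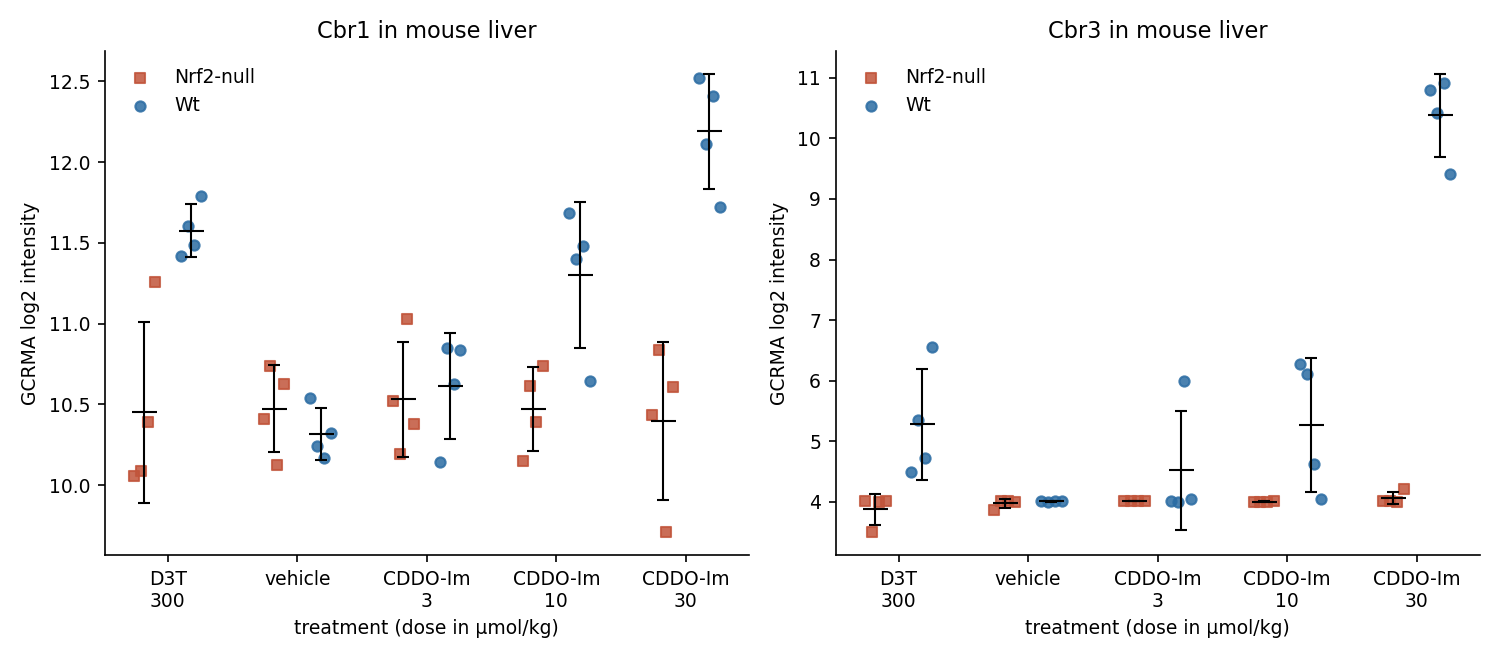
GCRMA log2 intensity of Cbr1 (left panel) and Cbr3 (right panel) in each of the 40 livers, by treatment, with Nrf2-null mice as squares and Wt mice as circles; the black bars are group means with SD (n = 4). Cbr1 of the Wt CDDO-Im 30 mice lay at 11.72 to 12.52 and Cbr3 at 9.41 to 10.91, while all Nrf2-null mice stayed at 9.71 to 11.26 and 3.50 to 4.21.

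The mean differences from vehicle in Wt liver, given as description, were 1.26 with D3T (SE 0.25) and 0.29, 0.98 and 1.87 at 3, 10 and 30 μmol/kg CDDO-Im for Cbr1. For Cbr3 they were 1.27 with D3T (SE 0.40) and 0.51, 1.26 and 6.38. All 4 Wt vehicle mice were at the baseline of Cbr3, so whether the genes changed alike below the top dose cannot be read from these values. The 6.38 of Cbr3 was the highest difference of all 18935 kept probe sets and the 1.87 of Cbr1 was the 37th, in a comparison in which the median probe set lay at −0.13. Without Wt CDDO-Im 3 replicate 3, the mouse at 6.00, the difference of Cbr3 at 3 μmol/kg was 0.02. The response of Nrf2-null liver minus that of Wt liver was −1.28 with D3T, −0.24 at 3, −0.99 at 10 and −1.95 at 30 μmol/kg for Cbr1 (SE 0.35), and −1.37, −0.47, −1.23 and −6.29 for Cbr3 (SE 0.57).

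By mean level over the 10 groups, Cbr1 ran from 12.19 ± 0.36 in Wt CDDO-Im 30 through 11.58 ± 0.16 in Wt D3T, 11.30 ± 0.45 in Wt CDDO-Im 10 and 10.61 ± 0.33 in Wt CDDO-Im 3 to the 5 Nrf2-null groups and Wt vehicle, at 10.53 to 10.32 (SD, n = 4 each). Neighbours in that order differed by more than the larger of their SDs only between Wt CDDO-Im 30 and Wt D3T and between Wt CDDO-Im 10 and Wt CDDO-Im 3. Cbr3 ran from 10.38 ± 0.68 in Wt CDDO-Im 30 through 5.28 ± 0.92 in Wt D3T, 5.27 ± 1.10 in Wt CDDO-Im 10 and 4.52 ± 0.98 in Wt CDDO-Im 3 to 6 groups between 4.06 and 3.88. Only its top group was apart from the next by more than the SD.

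The question whether either gene answered the compounds without Nrf2 was tested with limma, all 40 arrays sharing a single model, and p-values were adjusted by the Benjamini-Hochberg method over the kept probe sets. Cbr1 of the treated Nrf2-null mice differed from Nrf2-null vehicle by −0.02 with D3T (95% confidence interval −0.52 to 0.47, adjusted p = 0.98). That value moved with single mice, being −0.29 without Nrf2-null D3T replicate 4, the mouse at 11.26, and 0.11 without replicate 1, and it was −0.34 with array weights, none of which passed the threshold. At 3, 10 and 30 μmol/kg CDDO-Im the differences were 0.06, −0.0020 and −0.08 (adjusted p = 0.95 to 1.0), and the interval at 30 μmol/kg ran from −0.58 to 0.42. Neither gene was called in any of these 4 comparisons, where 3.8% of kept probe sets were called with D3T, 1.38% at 3, 0.444% at 10 and 0.882% at 30 μmol/kg. The differences of Cbr3 were −0.10, 0.04, 0.03 and 0.08 (adjusted p = 0.94 to 0.99), each between groups near the baseline. Their SE was 0.40, from the spread shared by all groups, against SDs of 0.0054 to 0.25 in the Nrf2-null groups. For Cbr3 these intervals are therefore likely too wide, and the tests could miss a small shift.

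With vehicle alone, neither gene was called between the genotypes. Cbr1 averaged 10.47 ± 0.27 in Nrf2-null and 10.32 ± 0.16 in Wt mice (SD, n = 4), a difference of 0.16 with an interval of −0.34 to 0.65 (limma, adjusted p = 0.75). Cbr3 averaged 3.97 in Nrf2-null and 4.01 in Wt mice, near the baseline in both (limma, adjusted p = 0.97), and here too a small shift could be missed. In this comparison 11.1% of kept probe sets were called. Over these 10 tests with an Nrf2-null group, 0 had an unadjusted limma p under 0.05, the lowest being 0.53, and the lowest p of the exact Wilcoxon test was 0.2.

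The dose of CDDO-Im was compared within Wt liver. Between 30 and 10 μmol/kg, Cbr3 was higher by 5.12 (interval 4.29 to 5.94, adjusted p = 5.4e-10), the rank 2 of all kept probe sets, and Cbr1 by 0.89 (0.39 to 1.39, adjusted p = 0.011). In this comparison 17.3% of kept probe sets were called. The call of Cbr1 rested on the whole group at 10 μmol/kg, since without Wt CDDO-Im 10 replicate 4 the difference was 0.67 (adjusted p = 0.070). Between 30 and 3 μmol/kg, Cbr3 was higher by 5.87 (adjusted p = 1.1e-11) and Cbr1 by 1.58 (1.08 to 2.08, adjusted p = 9.9e-05), with 12.3% of probe sets called. The limma model uses 1 spread for all 10 groups. Cbr3 had an SD of 0.68 to 1.10 in the treated Wt groups and 0.0054 to 0.25 in the groups near the baseline. Between treated Wt groups, here and below, its intervals are therefore likely too narrow and its p-values too small. Over the alternative limma fits its adjusted p reached 0.00056 for 30 over 10 and 0.0016 for 30 over 3 μmol/kg.

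Between 10 and 3 μmol/kg neither gene was called, where 9.36% of probe sets were. Cbr1 was 0.69 above the level at 3 μmol/kg (interval 0.19 to 1.19, adjusted p = 0.070) and passed the threshold without Wt CDDO-Im 10 replicate 4 (0.91, adjusted p = 0.025). Cbr3 was 0.75 above it (−0.07 to 1.57, adjusted p = 0.26) and passed without Wt CDDO-Im 3 replicate 3 (1.24, adjusted p = 0.049). Over the 3 doses both genes thus had rising means, Cbr1 with steps of 0.69 and 0.89 and Cbr3 with steps of 0.75 and 5.12.

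The compounds were compared in Wt liver at the doses given, which differ between them. Between 10 μmol/kg CDDO-Im and D3T, the difference was −0.27 for Cbr1 (interval −0.77 to 0.22, adjusted p = 0.48) and −0.01 for Cbr3 (−0.83 to 0.81, adjusted p = 0.99), with 18.2% of probe sets called. The interval of Cbr1 spans folds of 0.585 to 1.17. That of Cbr3 is not given as folds, since 1 of 4 mice at 10 μmol/kg was at the baseline. The p-values do not show that the compounds act alike. With 1 mouse left out the differences ranged from −0.40 (without Wt CDDO-Im 10 replicate 1) to −0.06 (without Wt CDDO-Im 10 replicate 4) for Cbr1 and from −0.35 to 0.41 for Cbr3. Between 30 μmol/kg CDDO-Im and D3T, whose mice share 1 range of animal numbers, Cbr3 was higher by 5.11 (4.28 to 5.93, adjusted p = 4.4e-10). Over the alternative limma fits that adjusted p reached 0.00033. Cbr1 was 0.62 above D3T (0.12 to 1.11) and did not pass the threshold (adjusted p = 0.060), in a comparison that called 26.8% of probe sets and whose median probe set lay at −0.13. With each array centred on its median it was 0.80 above D3T (adjusted p = 0.019).

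**Figure D2:**
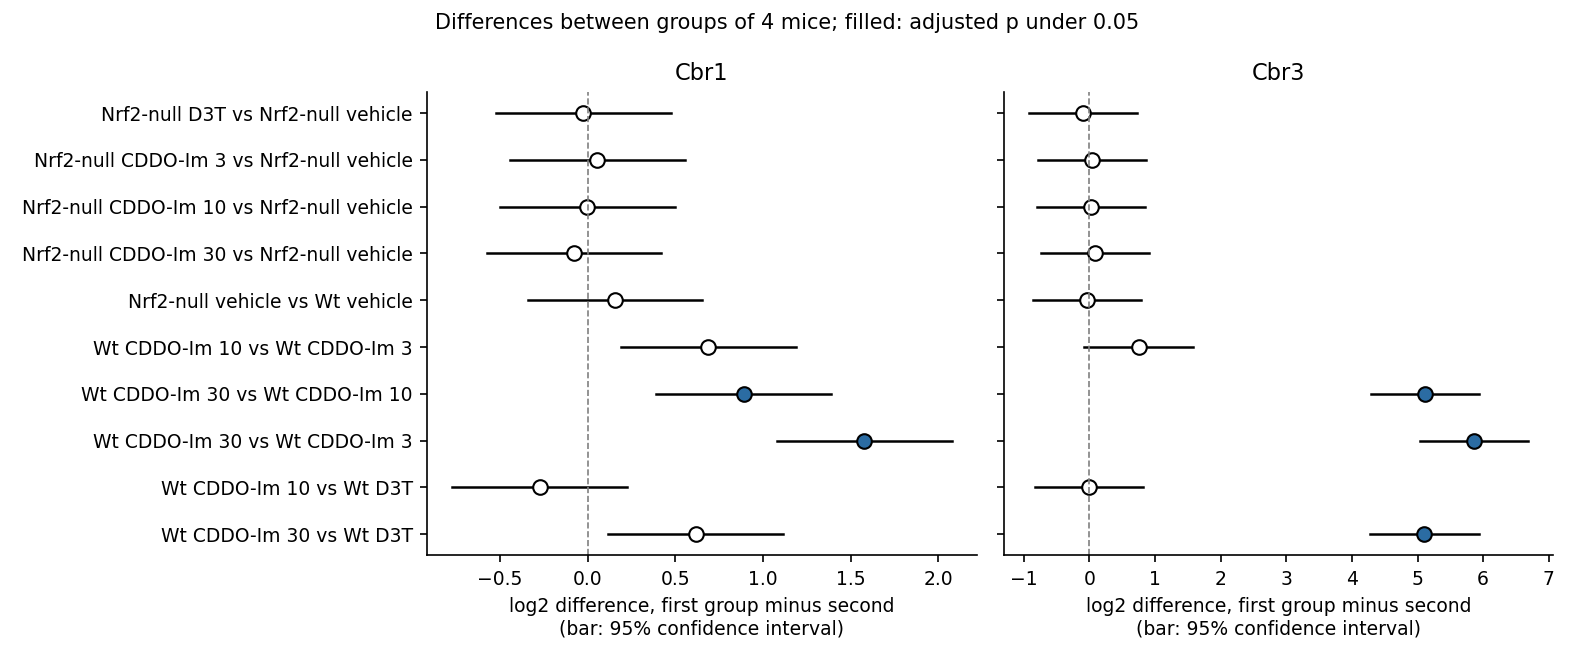
Log2 difference between groups of 4 mice for Cbr1 (left) and Cbr3 (right), first group minus second, with 95% confidence intervals from limma; filled points have an adjusted p under 0.05. The intervals of all 5 comparisons whose first group is Nrf2-null hold 0 for both genes. Cbr3 at Wt CDDO-Im 30 lies 5.11 to 5.87 above the other treated Wt groups. The spread behind the intervals is shared by all 10 groups.

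The unequal change of the genes at the top dose was tested per mouse, as Cbr3 minus Cbr1, in 5 comparisons of 4 mice with 4. An exact permutation test, two-sided, was used, and its smallest possible p is 0.029. Between 30 and 10 μmol/kg, Cbr3 changed by 4.23 more than Cbr1 (SE 0.44, exact p = 0.029, 0.048 after Benjamini-Hochberg adjustment). The excess was 4.29 between 30 and 3 μmol/kg (SE 0.54) and 4.49 between 30 μmol/kg and D3T (SE 0.42), with the same exact p of 0.029, the smallest possible. These 3 comparisons share the 4 Wt CDDO-Im 30 mice, whose response is among the values taken to have chosen the genes. The adjusted permutation p of 0.048 is thus not independent support. Below the top dose the excess was 0.06 between 10 and 3 μmol/kg (SE 0.65, exact p = 0.94) and 0.26 between 10 μmol/kg and D3T (SE 0.55, exact p = 0.69). With 1 mouse left out these ranged from −0.19 to 0.55 and from 0.01 to 0.61. Since 3 of 4 mice at 3 μmol/kg and 1 of 4 at 10 μmol/kg were at the baseline of Cbr3, they do not show that the genes changed alike. Against vehicle, as description, the excess was 0.01 with D3T, 0.22 at 3, 0.28 at 10 and 4.50 at 30 μmol/kg. The Cbr3 probe set read the baseline in all 4 Wt vehicle mice, in which Cbr1 read 10.17 to 10.54. Whether the Cbr1 probe set takes up signal from Cbr3 RNA was not tested.

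Within groups of Wt mice, Cbr1 and Cbr3 were positively related, which did not pass the threshold after adjustment. The deviations from the group means were correlated over 20 Wt mice at r = 0.592 (Spearman rho = 0.523, 100000 permutations within groups, p = 0.029 and 0.046), which gave 0.071 and 0.15 after adjustment over 10 relations, and without the 2 mice farthest from the median r was 0.468. Wt D3T replicate 4 was the highest of its group for both genes, and replicate 4 of Wt CDDO-Im 10 and replicate 4 of Wt CDDO-Im 30 were each the lowest of their group for both. By contrast Wt CDDO-Im 3 replicate 3, which stood far above its group for Cbr3 at 6.00, was near its group mean for Cbr1, at 10.63 against 10.61. In Nrf2-null mice, where Cbr3 was near the baseline, r was 0.325 (permutation p = 0.40). With Nqo1, a quinone reductase used as a marker of Nrf2 activity, Cbr1 had r = 0.639 in Nrf2-null mice (rho = 0.469, adjusted permutation p = 0.057 for r and 0.22 for rho). The median of Nqo1 in those mice was 3.23, below the log2 4 of the filter. There r was 0.475 without Nrf2-null D3T replicate 4 and Nrf2-null CDDO-Im 30 replicate 3. In Wt mice Cbr1 and Nqo1 had r = 0.673 (rho = 0.615, adjusted permutation p = 0.029 for r and 0.12 for rho, and r = 0.723 without 2 mice). For Cbr3 and Nqo1 in Wt mice r was 0.599 (rho = 0.580, adjusted permutation p = 0.057 for r, and r = 0.535 without 2 mice). With the median of the array, r in Wt mice was 4.9e-05 for Cbr1 and −0.232 for Cbr3 (permutation p = 1.0 and 0.45).

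**Figure D3:**
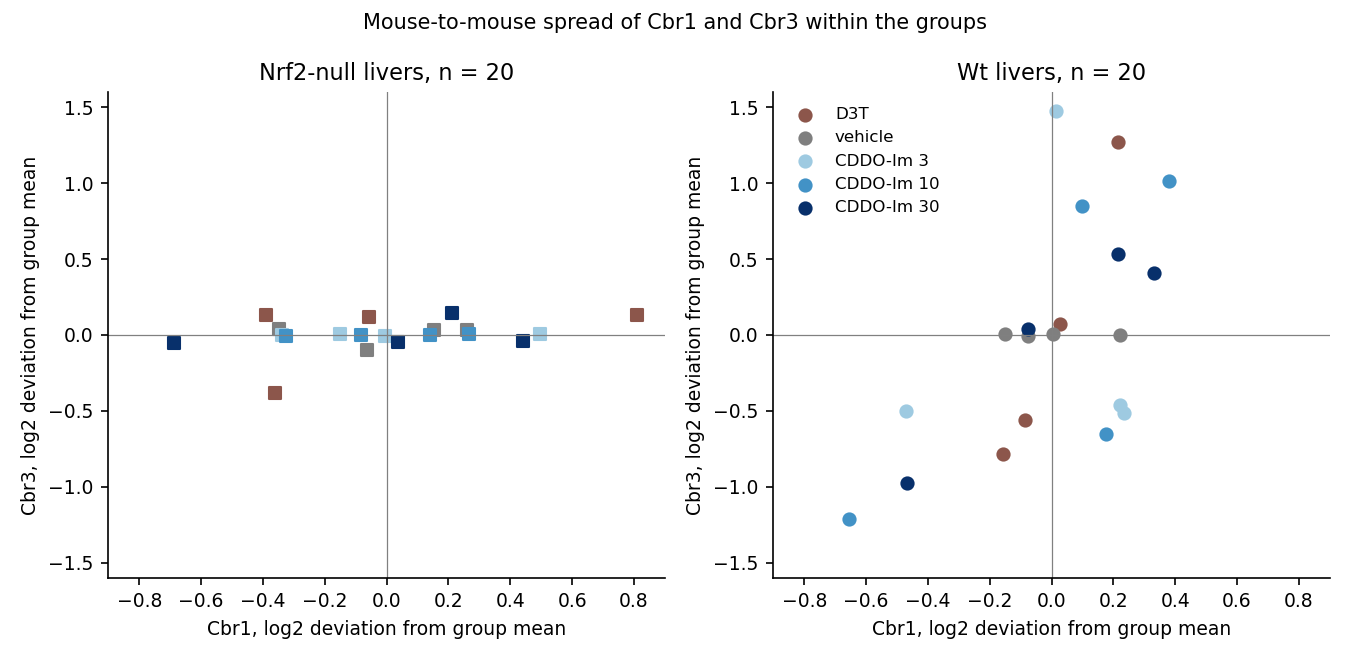
Deviation of each mouse from its group mean, Cbr1 on the horizontal and Cbr3 on the vertical axis (log2), in 20 Nrf2-null livers (left) and 20 Wt livers (right), coloured by treatment. Over the Wt mice r was 0.592, which did not pass the threshold after adjustment (permutation test, adjusted p = 0.071). Wt vehicle mice lie close to the horizontal line. Nrf2-null mice also lie close to it, with Cbr3 near its baseline (r = 0.325).

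Over the 40 arrays the genes with the pattern most like Cbr1 were Abcc4, an efflux transporter (r = 0.860), Nqo1 (0.852), Gsr, the glutathione reductase (0.813), Cbr3 (0.813), Gstm3, a glutathione S-transferase (0.805), and Mvp, the major vault protein (0.798). For Cbr3 they were Abcc4 (0.893), Srxn1, the sulfiredoxin (0.883), Abcc12 (0.867), Cbr1 (0.813), Nqo1 (0.790) and Pla2g7, a phospholipase (0.782). These r are a description over arrays that share the 10 group means. Without the 4 Wt CDDO-Im 30 arrays all were lower. For Cbr3 they were 0.743 with Abcc4, 0.525 with Srxn1, 0.331 with Abcc12, 0.687 with Cbr1, 0.725 with Nqo1 and 0.394 with Pla2g7, and for Cbr1 with the other 5 genes they were 0.655 to 0.745. Of the 8 genes other than the pair, 7 had a promoter window to search (all but Gsr). Of the 7, 3 (Abcc4, with 2 windows, Pla2g7 and Srxn1) held the TGACNNNGC core, which 12.4% of all windows held. So few genes, picked on these arrays, give no share to set against that.

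Among other carbonyl and quinone reductases, 29 of 35 listed genes were measured. Between 30 and 10 μmol/kg in Wt liver, 2 were called higher, Nqo1 by 1.78 (adjusted p = 0.00026) and Blvrb, the biliverdin and flavin reductase, by 0.73 (adjusted p = 0.0031), and 0 lower. Over all 9695 genes, 5.01% were called higher and 13.7% lower, and the median difference was −0.05 for the list and −0.07 for all genes. Against vehicle, 3 of the 29 were higher with D3T, Nqo1 by 2.54, Ptgr1, a prostaglandin reductase, by 1.40 and Blvrb by 0.62, where 2.3% of all genes were higher and 1.36% lower. At 10 μmol/kg 4 were higher and 1 lower (4.99% and 12.3% of all genes), and at 30 μmol/kg 7 were higher and 1 lower (2.66% and 19.7%). The 7 were Nqo1 (4.09), Ptgr1 (1.32), Akr1b8, an aldose reductase relative (1.29), Blvrb (1.17), Akr1d1, the steroid 5β-reductase (0.51), Akr1c13 (0.47) and Spr, the sepiapterin reductase (0.32). Cbr4, the mitochondrial member of the carbonyl reductases, was not among them, and differed by −0.28 between 30 and 10 μmol/kg (adjusted p = 0.080). Between 30 μmol/kg and D3T, 3 of the 29 were higher (Nqo1, Blvrb and Akr1c14) and 7 lower, among them Cbr4 by 0.52 (adjusted p = 0.00088), where 4.35% of all genes were higher and 25.4% lower. In Nrf2-null D3T mice Akr1b8 was higher than with vehicle by 1.29 (adjusted p = 0.023) and Cryz, a quinone reductase, by 0.44. Dhrs4, a retinal and carbonyl reductase, was lower by 0.40, where 2.19% of all genes were higher and 1.75% lower. With only these 2 groups fitted, 0 of 18935 kept probe sets were called. These calls, like those with D3T in Nrf2-null liver in the next list, thus lean on the spread shared with other groups. With CDDO-Im in Nrf2-null liver, 0 of the 29 were called at 10 μmol/kg (0.124% of all genes higher and 0.113% lower) and at 30 μmol/kg (0.227% and 0.299%).

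Of 34 other Nrf2 target genes, 28 were measured, Nqo1 being also in the list of reductases. Between 30 and 10 μmol/kg, 9 were higher and 0 lower, where 5.01% of all genes were higher and 13.7% lower, and the median was 0.49 for the list and −0.07 for all genes. The largest of the 9 were Nqo1 (1.78), Abcc4 (1.55), Srxn1 (1.41), Osgin1, an oxidative stress growth inhibitor (1.21), and Pgd, the phosphogluconate dehydrogenase (0.82). The 0.89 of Cbr1 lay within the range of these targets, and the 5.12 of Cbr3 lay above all of them. Against vehicle in Wt liver, 10 rose and 1 fell with D3T (2.3% and 1.36% of all genes), 13 rose and 0 fell at 10 μmol/kg (4.99% and 12.3%), and 21 rose and 0 fell at 30 μmol/kg (2.66% and 19.7%). In Nrf2-null liver, 0 rose and 3 fell with D3T (Aox1, Gstp1 and Ephx1; 2.19% and 1.75% of all genes), 0 rose or fell at 10 μmol/kg (0.124% and 0.113%), and 0 rose and 1 fell at 30 μmol/kg (Abcc2; 0.227% and 0.299%). Of 9 measured genes of NADPH supply, the cofactor of both reductases, Pgd was the only one called between 30 and 10 μmol/kg.

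**Figure D4:**
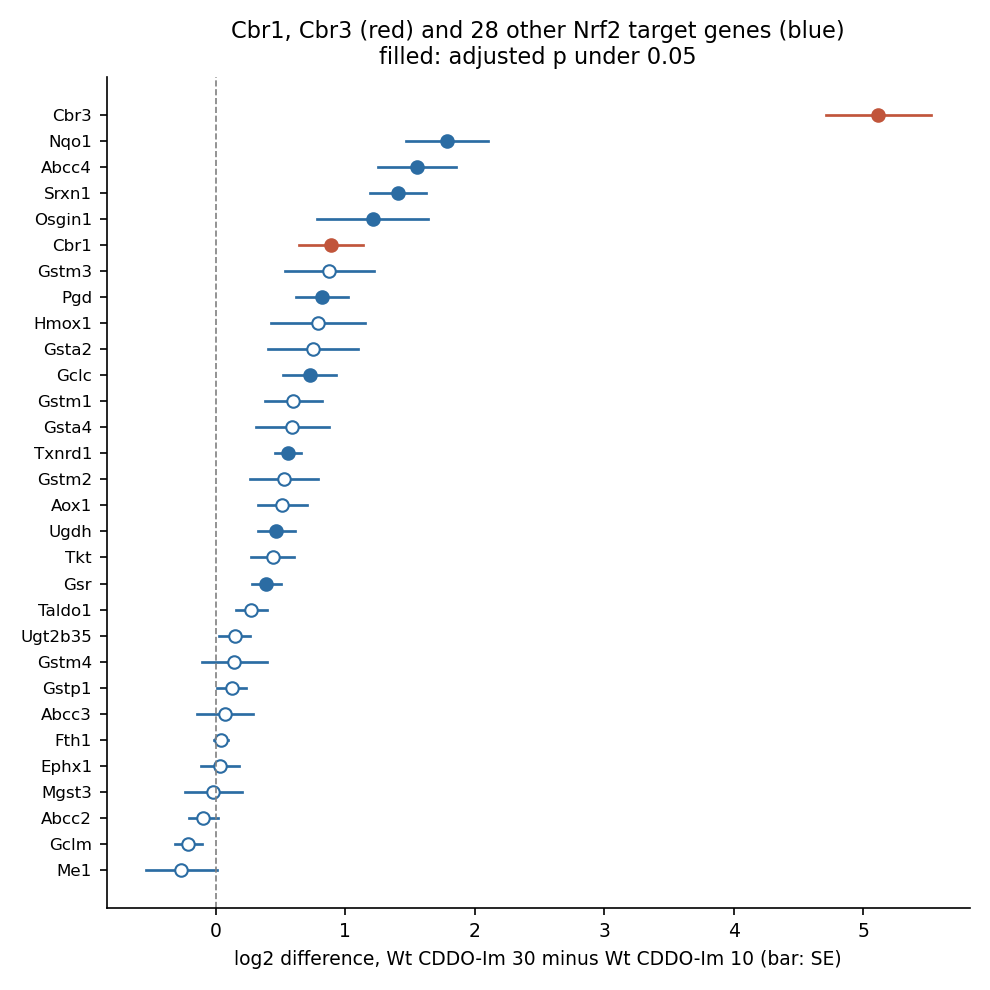
Log2 difference between Wt CDDO-Im 30 and Wt CDDO-Im 10 with SE for Cbr1 and Cbr3 (red) and the 28 measured genes of the list of other Nrf2 targets (blue), sorted by size; filled points have an adjusted p under 0.05. Cbr3 at 5.12 stands apart from the next gene, Nqo1 at 1.78, and Cbr1 at 0.89 lies sixth from the top.

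Of the genes on either side of the pair, Setd4 and Dop1b had kept probe sets. Setd4, a methyltransferase gene next to Cbr1, was lower at 30 than at 10 μmol/kg by 0.97 (limma, adjusted p = 0.0034), opposite to the pair in that comparison. Against Wt vehicle, Setd4 differed by 0.25 with D3T, 0.63 at 10 and −0.34 at 30 μmol/kg. None of these passed the threshold (limma, adjusted p = 0.65, 0.052 and 0.32). Dop1b beyond Cbr3 differed by −0.02 between 30 and 10 μmol/kg (adjusted p = 0.96).

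Between 30 and 10 μmol/kg, 5.01% of all genes were called higher and 13.7% lower. Of the measured markers of cells other than hepatocytes, only the Kupffer cell marker Marco was called. Of 7 Kupffer cell markers, Marco was higher by 1.53 (adjusted p = 0.047), and the log2 of their summed level was 13.55 to 13.87 at 30 and 12.89 to 13.72 at 10 μmol/kg. Their median difference was 0.45, and −0.07 for all genes. The 2 measured bile duct markers, Sox9 and Epcam, differed by 0.49 and 0.86 without passing the test (adjusted p = 0.20 and 0.29). Their summed levels were 6.20 to 8.27 at 30 and 5.57 to 6.14 at 10 μmol/kg. Of 6 hepatocyte markers, Cps1 was lower by 0.17 (adjusted p = 0.019), with summed levels of 18.26 to 18.33 at 30 and 18.28 to 18.38 at 10 μmol/kg. None of 4 endothelial (summed levels 11.61 to 11.85 at 30 and 11.55 to 11.68 at 10 μmol/kg) and 4 stellate cell markers (13.65 to 13.78 and 13.66 to 13.79) was called, nor was Alas2, the only measured red blood cell marker, nor any of 4 reference genes. In Nrf2-null D3T mice the summed levels ran from 11.61 to 13.75 for Kupffer cell and 10.58 to 12.32 for endothelial markers. In Nrf2-null vehicle mice they were 13.26 to 13.96 and 12.16 to 12.47. None of these markers was called between these groups. The hepatocyte sums were 18.43 to 18.47 with D3T and 18.16 to 18.48 with vehicle. The part of all these shifts in the values of Cbr1 and Cbr3 was not tested.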

How the data were processed

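Total liver RNA was hybridised to 1 array per mouse. The deposited log2 values were made by the authors with GCRMA, which corrects background, quantile normalises and summarises probes. No source used here gives its version. An array has no read depth, so the number of arrays limits precision. Probe sets were named from the platform annotation (34945 with 1 symbol, 932 with several, 9160 unnamed), and Gapdh had no probe set of its own symbol alone. Probe sets at log2 4 or more on 3 arrays of a group were kept. Where a gene had several kept probe sets, the one with the highest mean stood for it (9695 genes).

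limma 3.58.1 (R 4.3.3; trended, robust eBayes) was fitted to the 10 groups, with Benjamini-Hochberg adjustment over the kept probe sets and a threshold of 0.05. The model was checked on simulated data in which each probe set had the same spread in all groups, unlike Cbr3. Permutations used SciPy 1.17.1 and figures Matplotlib 3.10.9. The genes named are the 2 reductases, Nfe2l2, the 6 genes most correlated with each over the 40 arrays, up to 6 called genes per list, and 5 neighbours on each side. A further list gene was named where a result called for it, after its values were seen. The members and lists were chosen with earlier results of these data known. Promoters are from RefSeq (GRCm38.p6). The alternatives were another scaling, normalization, filter, variance model, array weights, sample set, replicate block, exact Wilcoxon tests and leaving out each mouse.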

Additional observations from a re-analysis of the deposited data

Results flagged for a closer look

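Each gene was examined in the 10 groups of 4 mice. In 5 of the 10 groups for Cbr3 and 0 of the 10 for Cbr1, 1 mouse lay far from the other 3, by Dixon's ratio of its gap to the range of the group at its 95% critical value, and chance alone gives about 1 in 20. Nrf2-null vehicle replicate 1 read 3.87 (ratio 0.951), Nrf2-null D3T replicate 2 read 3.50 (0.971) and Nrf2-null CDDO-Im 10 replicate 1 read 3.99 (0.846), all below the baseline of 4.01. Nrf2-null CDDO-Im 30 replicate 4 read 4.21 (0.942), just above it. Wt CDDO-Im 3 replicate 3 read 6.00 (0.974), while the other 3 mice of its group read 4.00 to 4.06. Where most mice of a group lie at the baseline, the range is small, and a small departure gives a high ratio.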

How the results depend on the processing

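Of the results for Cbr1 and Cbr3 under an alternative, 742 kept their side of the threshold or, with no test, moved by less than the spread between mice, 8 passed the threshold where the reported value had not, 1 lost its call and 1 description moved. Cbr1 at Wt CDDO-Im 30 over D3T passed with array median centring (0.80), quantile normalization again (0.68), array weights (0.63) and only the groups compared (0.62), and ranged from 0.51 to 0.77 with 1 mouse left out. Cbr1 at Wt CDDO-Im 10 over 3 passed with array weights (0.61), and ranged from 0.53 to 0.91 with 1 mouse left out. Cbr1 at Wt CDDO-Im 30 over 10 ranged from 0.67, without Wt CDDO-Im 10 replicate 4 (adjusted p = 0.070), to 1.05. Cbr3 at Wt CDDO-Im 10 over 3 ranged from 0.41 to 1.24. The genotype difference of Cbr1 with D3T was −1.62 with array weights, and that of Cbr3 at 3 μmol/kg was 0.02 without Wt CDDO-Im 3 replicate 3. The causes were not tested.

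Same-numbered mice did not deviate together in general (median r = 0.00847 over 180 pairs, range −0.259 to 0.367). No sign of a pairing by number was thus seen, though a weak pairing could be missed. With the replicate block, Cbr1 at Wt CDDO-Im 30 over 10 was 0.89 (adjusted p = 0.015), and no call of either gene changed. The counts of called probe sets behind the percentages moved more. In Wt mice they were 3278 (1888 to 4768 over the alternatives) at 30 over 10, 2320 (1124 to 4181) at 30 over 3, 1772 (1000 to 3639) at 10 over 3, 3445 (1809 to 4843) at 10 over D3T and 5069 (2967 to 6735) at 30 over D3T. In Nrf2-null mice over vehicle they were 720 (0 to 1065) with D3T and 262 (0 to 698), 84 (1 to 1013) and 167 (1 to 210) at 3, 10 and 30 μmol/kg, and over Wt vehicle 2104 (520 to 2571). The lowest in Nrf2-null mice came with only the groups compared.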
